A study of Mus musculus with 6 samples.

Results

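Aldehyde oxidases and xanthine dehydrogenase form 1 enzyme family, and 4 genes of it were followed here: Aox1, Aox3, Aox4 and Xdh. They were chosen because Aox1 and Aox3 had lower signal in prefrontal cortex of Nrf2 knockout mice, so every knockout and wild type value of these genes below is a description and carries no test. All probes annotated to them were taken, which gave 9 probes of the 150305 on the array that are no controls, and 4 of the 18193 genes with a tested probe. The study compared 3 Nrf2 knockout samples with 3 wild type samples, all prefrontal cortex of males of ICR, an outbred mouse stock, at 3 to 4 months of age. Each RNA was labelled with the dye Cy3 and hybridised alone to an Agilent array with probes for coding, long non-coding and circular RNAs. The labels give neither the part of Nfe2l2, the gene for Nrf2, that was deleted, nor whether each sample came from its own animal, so the spread between samples may be technical.

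The enzymes of this family carry a molybdenum cofactor, iron-sulphur clusters and FAD. Aldehyde oxidases oxidise aldehydes, retinaldehyde among them, and many nitrogen-containing rings of drugs and vitamins, while xanthine dehydrogenase carries out the last steps of purine breakdown, from hypoxanthine through xanthine to urate. The aldehyde oxidase genes arose by duplication of an ancestral xanthine dehydrogenase gene. In mouse, Aox1 is active in many tissues, Aox3 mainly in liver and Aox4 mainly in skin and the Harderian gland of the eye. Nrf2 is a transcription factor that pairs with small MAF proteins at antioxidant response elements, and mouse Aox1 is known as one of its targets.

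On chromosome 1 of the GRCm38.p6 assembly, the aldehyde oxidase genes stand in a row: Aox1 from 58029809 to 58106410, Aox3 from 58113135 to 58202221 and Aox4 from 58210397 to 58268600. The gap after Aox1 is 6724 bases and the gap after Aox3 is 8175 bases. Aox2, the paralog that completes the row, follows at 58278326 to 58379264. Xdh lies apart, on chromosome 17 from 73883895 to 73950397. The longest run of bases that probes of different members shared on the same strand was 8, over the 9 probes.

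The promoters of the 3 aldehyde oxidase genes are shown because these genes are close neighbours, and the genotypes were apart at Aox1 and Aox3 but not at Aox4. Each window runs from 250 bases before to 50 bases after a RefSeq start site on GRCm38.p6, plus strand, 5′ to 3′. For Aox1 that site lies inside the gene, downstream of the gene start at 58029809 given above. The Aox1 window therefore holds only part of the 250 bases before 58029809. Motif positions count from the start site of the window. Capitals mark matches to 2 motifs, the TRE TGACTCA and the XRE core GCGTG, and the second reads CACGC on the plus strand where it matches on the minus strand.
Aox1, chr1:58029719-58030018: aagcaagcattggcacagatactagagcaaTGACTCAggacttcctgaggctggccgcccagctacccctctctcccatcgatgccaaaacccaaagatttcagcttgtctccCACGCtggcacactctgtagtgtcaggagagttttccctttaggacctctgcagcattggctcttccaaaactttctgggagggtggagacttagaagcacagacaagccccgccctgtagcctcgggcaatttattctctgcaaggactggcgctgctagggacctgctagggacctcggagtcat
Aox3, chr1:58112886-58113185: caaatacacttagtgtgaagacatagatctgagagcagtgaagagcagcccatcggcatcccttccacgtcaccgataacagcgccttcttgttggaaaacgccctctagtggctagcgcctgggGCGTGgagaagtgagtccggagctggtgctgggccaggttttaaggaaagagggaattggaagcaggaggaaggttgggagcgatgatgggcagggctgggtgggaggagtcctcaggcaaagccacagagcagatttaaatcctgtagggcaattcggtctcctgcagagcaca
Aox4, chr1:58210147-58210446: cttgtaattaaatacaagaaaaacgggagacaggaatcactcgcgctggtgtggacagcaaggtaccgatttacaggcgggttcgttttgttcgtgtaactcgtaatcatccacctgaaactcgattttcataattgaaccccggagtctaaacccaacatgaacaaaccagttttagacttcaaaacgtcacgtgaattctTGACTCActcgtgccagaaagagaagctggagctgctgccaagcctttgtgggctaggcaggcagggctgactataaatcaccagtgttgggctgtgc
The TRE, the element of AP-1 that lies within many antioxidant response elements, matched in Aox1 at −220 to −214 and in Aox4 at −48 to −42 from the start site. The XRE core, the element of the aryl hydrocarbon receptor, matched in Aox1 at −137 to −133 on the minus strand and in Aox3 at −125 to −121 on the plus strand. The third motif searched on both strands, the core TGACNNNGC of the antioxidant response element, had no match in these windows, which says only that these letters are not there. Of 32851 mouse promoter windows of the same length, 12.4% held the antioxidant response element core, 5.20% the TRE and 32.4% the XRE core. GC content was 54.3% in the Aox1 window, 55.0% in the Aox3 window and 47.0% in the Aox4 window, against a median of 52.7% over all windows. CpG pairs numbered 7 in Aox1, 10 in Aox3 and 13 in Aox4, against a median of 7.

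A pair of probe sequences shows what the array read from these transcripts. Both are Agilent catalogue probes in which exactly 1 reading frame is free of stop codons, and both stand for the smallest difference measured in their gene.
Aox3 probe 2, chr1:58245203-58245262 on mm9, plus strand: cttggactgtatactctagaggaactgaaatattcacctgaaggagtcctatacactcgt
Xdh probe 3, chr17:74242100-74242974 on mm9, minus strand: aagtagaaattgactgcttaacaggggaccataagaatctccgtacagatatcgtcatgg
The Xdh probe is 60 bases long but covers 875 genomic bases, so it reads across at least 1 splice junction.

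Signals are log2 values from which the 75th percentile of the same array has been taken away, so that 0 is the level of that percentile. A probe's values can be compared between arrays but not with those of another probe, since probes differ in how well they hybridise. The 75th percentiles of the processed signal were 245 to 269 in the knockout and 278 to 280.3 in wild type, 71.0 to 73.4% of the probes on an array were well above background, and no probe was saturated (0 on each). Slide 1 held knockout 1 and the 3 wild type arrays and slide 2 held knockouts 2 and 3, a split that is also that of the 2 scan times. The 75th percentile was 269 for knockout 1 and 248 and 245 for knockouts 2 and 3. Median background was 23 to 24 on slide 1 and 18 to 19 on slide 2. Nfe2l2 itself had −3.74, −3.79 and −3.46 in the knockout against 0.49, 0.39 and 0.35 in wild type at 1 coding probe. That probe was well above background on 3 of 3 knockout arrays. At the other 2 coding probes Nfe2l2 was not well above background in the knockout and at least 81.5-fold and at least 65.6-fold lower there. A probe for a non-coding Nfe2l2 transcript was well above background on every array, with overlapping groups and a log2 difference of −0.35 (SE 0.19). Over 105930 tested probes, limma called 10, which is 0.00944%, and 7 of them were lower in the knockout, which is 0.00661%. All 8 markers of cortical excitatory neurons were well above background on every array. The 8 striatal markers were too, so this criterion does not tell 1 region from another. The summed linear signal of the cortical markers, in units of the array's 75th percentile, was 348 to 410 in the knockout and 336 to 360 in wild type.

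Aox1, the most widely active of the mouse aldehyde oxidases, had the largest difference among the members. Probe 1, a custom probe of the array, measured −0.67, −0.69 and −0.77 in knockouts 1, 2 and 3 and 1.18, 1.47 and 1.40 in wild types 1, 2 and 3. Every knockout array lay below every wild type array, and the gap between the groups was wider than the spread within either. The means were −0.71 ± 0.054 in the knockout and 1.35 ± 0.15 in wild type (SD, n = 3 each), a log2 difference of −2.06 (SE 0.11), or a signal 4.18-fold lower in the knockout. Probe 2 of Aox1, at chromosome 1, 58163025 to 58163084 on mm9, starts at base 4152 of its transcript. It measured −1.10, −1.08 and −0.78 in the knockout and 0.82, 1.15 and 0.95 in wild type. The groups again did not overlap, and the 2 probes of the gene differed by only 0.10 in their log2 difference. Probe 2 averaged −0.99 ± 0.18 in the knockout and 0.97 ± 0.17 in wild type (SD, n = 3 each), a log2 difference of −1.96 (SE 0.14), or 3.89-fold lower.

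Knockout 1, which shared slide 1 with all wild type arrays, lay next to knockout 2 at both Aox1 probes. Within slide 1 alone, where knockout 1 is the only knockout array, the log2 difference of Aox1 was −2.02 at probe 1 and −2.08 at probe 2. No spread between knockout arrays enters these values. Leaving out any 1 array kept probe 1 between −2.15 and −2.002 and probe 2 between −2.06 and −1.87.

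**Figure D1:**
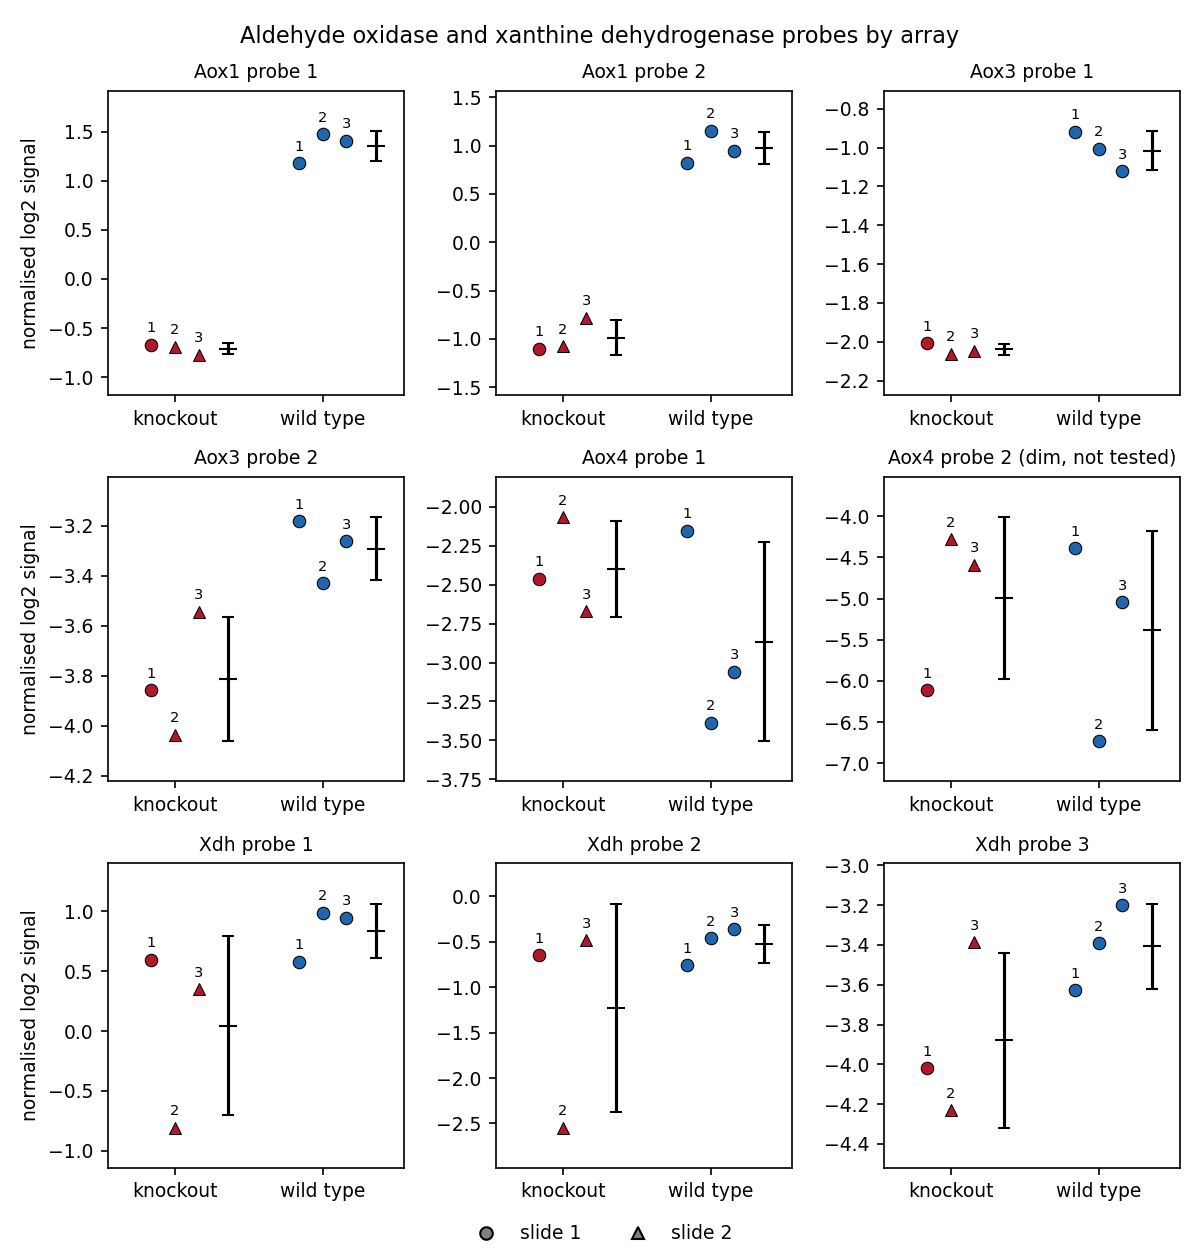
Normalised log2 signal (y axis) of each of the 9 probes of Aox1, Aox3, Aox4 and Xdh on each array, knockout left and wild type right, numbered by replicate, with circles for slide 1 and triangles for slide 2; bars give the mean and SD of 3 arrays. The groups are apart at both Aox1 and both Aox3 probes, overlap at both Aox4 probes, and at the 3 Xdh probes knockout 2 is the lowest array.

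Aox3, which codes for the main aldehyde oxidase of mouse liver, was lower in the knockout by a smaller amount. Probe 1, a custom probe, measured −2.01, −2.06 and −2.05 in the knockout and −0.92, −1.01 and −1.12 in wild type. The 3 knockout arrays lay within 0.055 of each other, and all were below the lowest wild type array. The means were −2.04 ± 0.028 in the knockout and −1.02 ± 0.10 in wild type (SD, n = 3 each), a log2 difference of −1.02 (SE 0.091), or 2.03-fold lower. At probe 2, whose sequence is printed above, Aox3 had −3.86, −4.03 and −3.54 in the knockout and −3.18, −3.43 and −3.26 in wild type. These groups did not overlap either, but knockout 3 came close to wild type 2. Here the means were −3.81 ± 0.25 in the knockout and −3.29 ± 0.13 in wild type (SD, n = 3 each), a log2 difference of −0.52 (SE 0.15), or 1.44-fold lower. The 2 probes of Aox3 therefore agreed in direction and differed by 0.50 in size on the log2 scale. With normexp, another background correction that adds an offset of 50 to every signal and so shrinks the differences of dim probes, Aox3 gave −0.61 at probe 1 and −0.11 at probe 2.

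Aox4, the aldehyde oxidase of skin and Harderian gland, had no separation of the genotypes. Its custom probe measured −2.46, −2.07 and −2.67 in the knockout and −2.15, −3.39 and −3.06 in wild type. Wild type 1 lay among the knockout arrays, and the other wild type arrays lay below all of them. The means were −2.40 ± 0.31 in the knockout and −2.87 ± 0.64 in wild type (SD, n = 3 each), a log2 difference of 0.46 (SE 0.33), which is of the order of the spread within the groups. The difference was 0.82 without wild type 1 and 0.20 without wild type 2, 0.30 without knockout 2, and 0.22 with normexp. The catalogue probe of Aox4, at chromosome 1, 58324864 to 58324923 on mm9, was well above background on 2 of 3 arrays of each genotype and was left out of the fit. It gave −6.12, −4.28 and −4.59 in the knockout and −4.39, −6.73 and −5.04 in wild type, 2 groups that overlap over most of their range. Aox2, the paralog at the end of the row, known from the nasal mucosa, was well above background on 0 of 3 arrays of each genotype at its only probe.

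Xdh, the purine-degrading member, had 3 tested probes, and knockout 2 was the lowest array at each of them. The custom probe 1 measured 0.59, −0.81 and 0.35 in the knockout and 0.58, 0.99 and 0.95 in wild type. Knockout 2 lay well below all other arrays, while knockout 1 lay within the wild type range. The means were 0.046 ± 0.75 in the knockout and 0.84 ± 0.23 in wild type (SD, n = 3 each), a log2 difference of −0.79 (SE 0.36). Probe 2 of Xdh, on the minus strand of mm9 chromosome 17 at 74233511 to 74233570, starts at transcript base 4278. It gave −0.65, −2.54 and −0.48 in the knockout and −0.76, −0.46 and −0.36 in wild type. Without knockout 2 these groups are intermingled. The means were −1.23 ± 1.14 in the knockout and −0.53 ± 0.21 in wild type (SD, n = 3 each), a log2 difference of −0.70 (SE 0.53). Probe 3 of Xdh, printed above and starting at base 3558 of the transcript, had −4.02, −4.23 and −3.39 in the knockout and −3.63, −3.39 and −3.20 in wild type. Knockout 2 was the lowest array here too, though close to knockout 1, and knockout 3 lay within the wild type range. Its means were −3.88 ± 0.44 in the knockout and −3.41 ± 0.21 in wild type (SD, n = 3 each), a log2 difference of −0.47 (SE 0.23).

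Relative to the mean of knockouts 1 and 3, knockout 2 was lower by 2.43-fold at Xdh probe 1, 3.94-fold at probe 2 and 1.44-fold at probe 3. Without knockout 2 the log2 differences of Xdh were −0.37, −0.04 and −0.30 at probes 1, 2 and 3. With slide as a block, which leaves knockout 1 as the only knockout array set against wild type, they were −0.24 (SE 0.45), −0.12 (SE 0.74) and −0.61 (SE 0.35). Without knockout 3 they were −0.95, −1.07 and −0.72, and with normexp probes 2 and 3 of Xdh gave −0.45 and −0.073. Summed markers of endothelium, the cell type in which xanthine dehydrogenase is often described, were 75.3, 77.0 and 85.4 in knockouts 1, 2 and 3 and 87.6, 86.8 and 81.2 in wild types 1, 2 and 3, in units of the array's 75th percentile. The part of endothelial content in the Xdh values was not tested.

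Of the 8 tested probes of the 4 genes, 7 had a log2 difference below 0, and their median was −0.75, against 0.028 over all tested probes. The genotypes did not overlap at 4 of the 8, all lower in the knockout and all of Aox1 or Aox3, beside 10.4% of all tested probes that were apart and lower and 21.6% that were apart in either direction. Limma placed 2 of the 8, both Aox1 probes, past its adjusted threshold of 0.05, beside the 0.00944% of all probes given above. With slide as a block, on slide 1 alone, with the replicate number as a block, or without any 1 of wild types 2 and 3 and knockouts 2 and 3, 0 of them passed. Since the genes were chosen from this contrast, nothing is read from these counts.

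**Figure D2:**
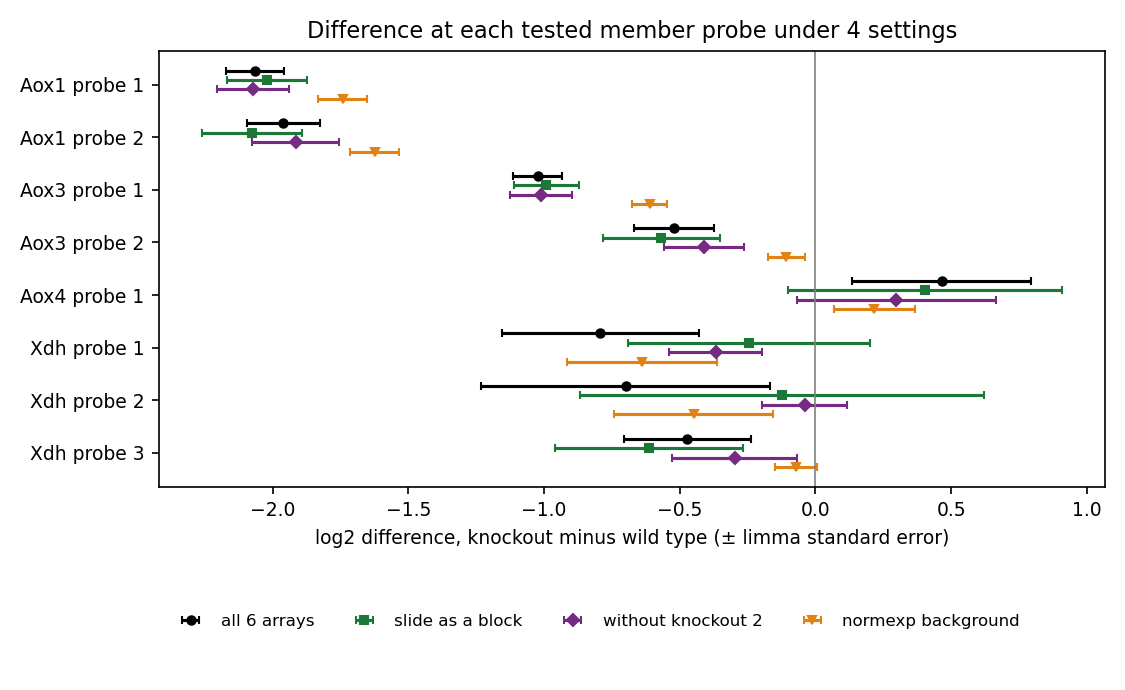
Log2 difference, knockout minus wild type, with limma's standard error (x axis), at the 8 tested probes of Aox1, Aox3, Aox4 and Xdh under 4 settings of the fit. Aox1 stays near −2 except with normexp (−1.74 and −1.62), while the Xdh differences move towards 0 without knockout 2.

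The array also carried probes for circular RNAs (circRNAs), closed loops of exons made by back-splicing, that lie inside Aox1 (4 probes) and Xdh (4 probes). Whether linear RNA of the host gene adds signal at these probes was not tested. Aox1 circRNA 3, on the plus strand of GRCm38 chromosome 1 at 58059035 to 58065366, measured −5.41, −5.18 and −5.54 in the knockout and −4.06, −3.35 and −3.69 in wild type. It was well above background on 0 of 3 knockout arrays and 3 of 3 wild type arrays, with means of −5.38 ± 0.18 in the knockout and −3.70 ± 0.36 in wild type (SD, n = 3 each). Because the knockout signal is only a bound, the loop was at least 2.67-fold lower there, the wild type mean being set against knockout values raised, where lower, to the dimmest signal that counted as well above background on that array. The Aox1 loops 1 and 4 had log2 differences of −0.65 (SE 0.22) and −0.82 (SE 0.46) with overlapping groups. Loop 1 was well above background on 2 of 3 knockout arrays and loop 4 on 1 of 3, against 3 of 3 wild type arrays for both, so these sizes rest partly on signals near background. Loop 2 was well above background on 0 of 3 arrays of each genotype.

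Inside Xdh, circRNA 2, on the minus strand of GRCm38 chromosome 17 at 73906010 to 73907745, measured −4.96, −5.48 and −5.23 in the knockout and −4.74, −4.66 and −4.73 in wild type. The groups did not overlap, beside 10.4% of all tested probes that were apart and lower in the knockout. The log2 difference was −0.52 (SE 0.14). This loop was well above background on 1 of 3 knockout and 3 of 3 wild type arrays, so that size rests partly on signals near background. The other 3 Xdh loops overlapped between the genotypes, with log2 differences of 0.067 (SE 0.23), −0.13 (SE 0.20) and −0.11 (SE 0.21). Knockout 2, the low array at the linear Xdh probes, was the lowest array at circRNA 2 but not at the other loops.

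**Figure D3:**
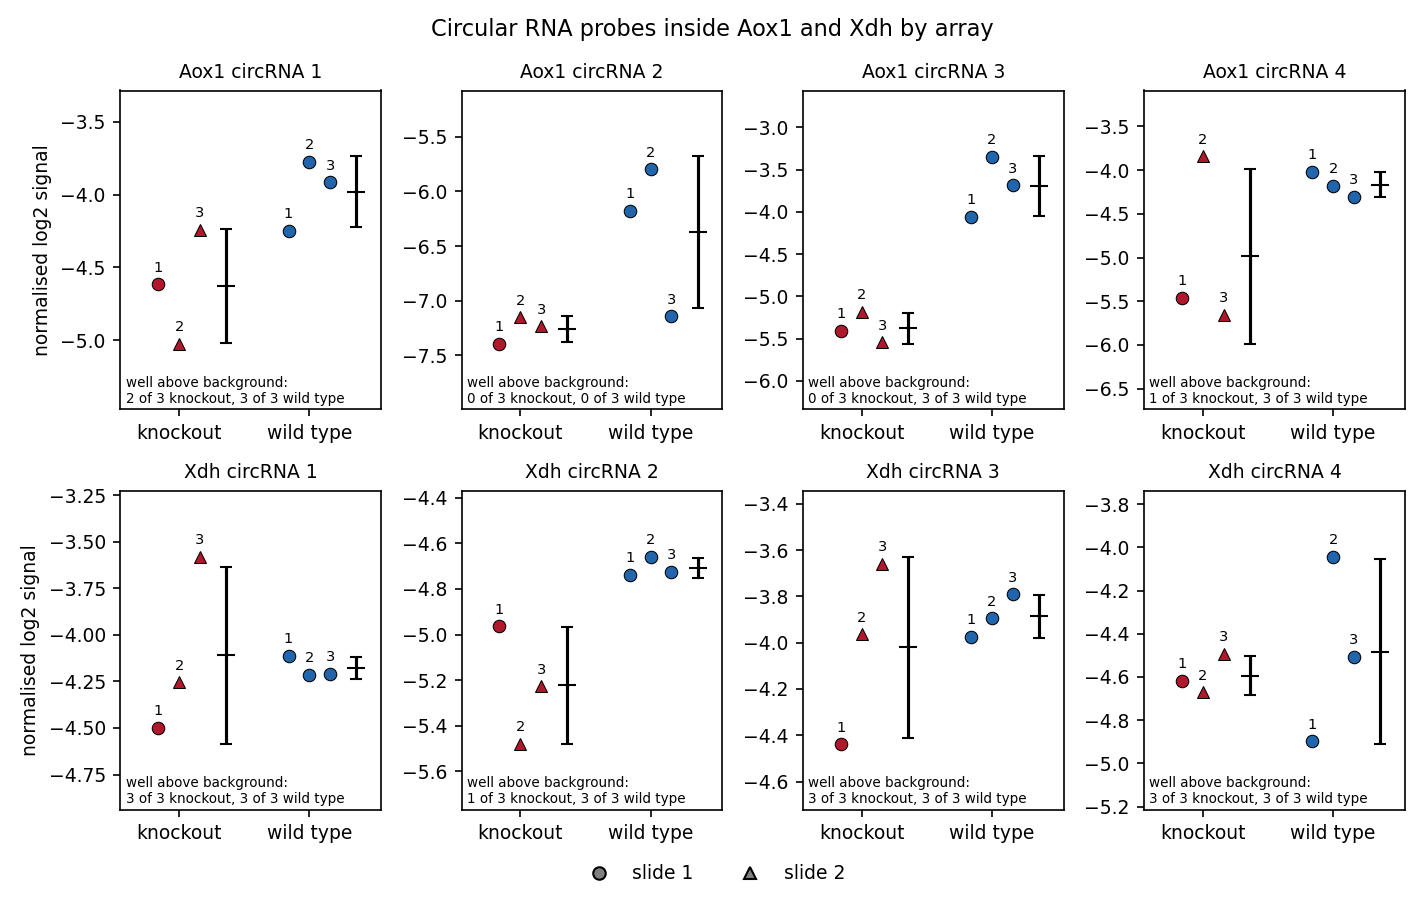
Normalised log2 signal (y axis) of the 4 Aox1 and 4 Xdh circular RNA probes on each array, knockout left and wild type right, numbered by replicate, with circles for slide 1 and triangles for slide 2; bars give mean and SD of 3 arrays. Aox1 circRNA 3 is well above background on the 3 wild type arrays and on 0 of 3 knockout arrays.

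Genes next to the members were read from the same fit, taking the brightest tested probe of each gene, to place the difference on the chromosome. Around the aldehyde oxidase row, 21 of the 24 genes on the array that start within 1 Mb were tested. Limma called 0 of them higher and 0 lower, beside 0.0165% of all 18193 genes in either direction and 0.011% lower. At an unadjusted p under 0.05 there were likewise 0. Their log2 differences ran from −0.22 to 0.20 with a median of 0.025, against −0.005 over all genes, with 12 above and 9 below 0. The genotypes were apart in 2 of the 21 (9.52%), beside 19.5% of all genes. The nearest tested neighbour before Aox1 was Sgo2a, a guardian of sister chromatid cohesion that ends 3.53 kb before the row, at 0.14 (SE 0.18, limma adjusted p = 0.679). After the row the nearest was Bzw1, a regulator of translation start that begins 124 kb beyond Aox4, at −0.01 (SE 0.11, limma adjusted p = 0.964). The largest difference was that of Cflar, an inhibitor of death receptor signalling, at −0.22 (SE 0.098, limma adjusted p = 0.339). Other probes of Cflar measured 0.022 to 0.16. Among the other tested probes of all these neighbours, the lowest was −0.41 (Fam126b) and the highest 0.34 (Nif3l1).

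**Figure D4:**
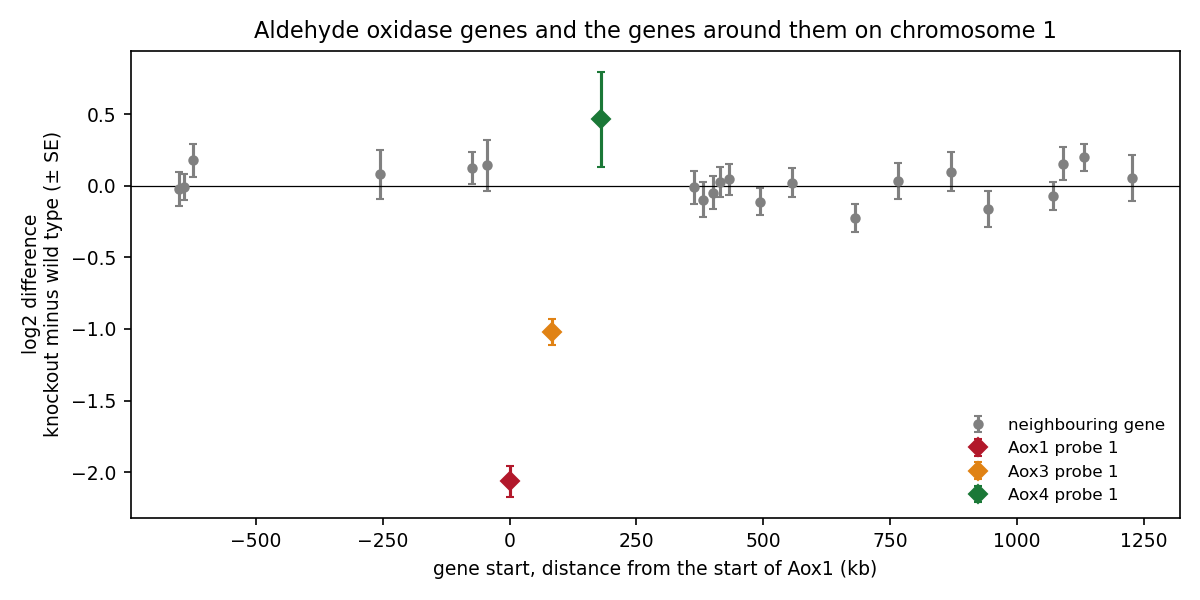
Log2 difference, knockout minus wild type, with limma's standard error (y axis), of Aox1, Aox3 and Aox4 (probe 1 of each) and of 21 neighbouring genes, against the distance of the gene's start from that of Aox1 in kb (x axis). The neighbours lie between −0.22 and 0.20, Aox1 at −2.06, Aox3 at −1.02 and Aox4 at 0.46.

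Around Xdh, 12 of the 14 genes on the array within 1 Mb were tested, with limma calling 0 higher and 0 lower and 0 at an unadjusted p under 0.05. Their median log2 difference was 0.037, with 7 above and 5 below 0. The genotypes were apart in 2 (16.7%, beside 19.5% of all genes). Ehd3, an endocytic recycling protein gene on 1 side of Xdh, gave −0.19 (SE 0.15, limma adjusted p = 0.518). On the other side Srd5a2, a steroid 5-alpha-reductase gene, gave 0.60 (SE 0.35, limma adjusted p = 0.412). Its signal was dim, well above background on 3 of 3 knockout and 2 of 3 wild type arrays. Taking the brightest probe of each gene, Srd5a2 had the largest difference of this region. Lbh, a transcription cofactor gene, came next at 0.20 (SE 0.094, limma adjusted p = 0.358). Among the other tested probes of these genes, the lowest was −0.60 (Slc30a6) and the highest 1.23 (Yipf4). The brightest Yipf4 probe gave 0.052.

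The enzymes and carriers that work with the members were described by 7 lists of 107 genes, and 101 of these were tested. Limma called 0 of these 101 genes in either direction. For the cofactor itself, all 9 genes of molybdenum cofactor synthesis and of the other molybdenum enzymes were tested. Their median log2 difference was 0.026, with 5 above and 4 below 0. The genotypes were apart in 1 (11.1%, beside 19.5% of all genes), and 1 had an unadjusted p under 0.05. Over all tested probes, circular and long non-coding RNAs included, the share at that p was 15.1%. It was not taken over genes. The largest was Mocs1, which makes the first intermediate of the cofactor, with 1.05, 0.76 and 0.68 in the knockout and 1.21, 1.13 and 1.25 in wild type. Its log2 difference was −0.37 (SE 0.12, limma adjusted p = 0.31), while its other 3 tested probes measured −0.099 to 0.041. Mocs3, which activates the sulphur carrier of the pathway, was next at 0.09 (SE 0.09, limma adjusted p = 0.623).

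Among purine genes around xanthine, 17 of 19 were tested (not Ampd1 and Pnp2), 12 above and 5 below 0, with a median of 0.073. The genotypes were apart in 4 (23.5%, beside 19.5% of all genes). An unadjusted p under 0.05 was found in 3, beside 15.1% of all tested probes. The 2 largest differences were those of Nt5e, the ectonucleotidase CD73, and adenosine deaminase Ada. Nt5e gave −0.51 (SE 0.13, limma adjusted p = 0.307), and Ada gave −0.48 (SE 0.19, limma adjusted p = 0.321) with groups that overlapped. The nucleotidase gene Nt5c1a came next and went the other way, at 0.35 (SE 0.16, limma adjusted p = 0.353) with the groups apart. The second Nt5e probe gave −0.58, and the second Ada probe gave −0.11.

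Of the carriers of urate, the end product of Xdh, 7 of 8 were tested (not Slc17a1). Their median was −0.16, with 1 above and 6 below 0. The genotypes were apart in 2 (28.6%, beside 19.5% of all genes). An unadjusted p under 0.05 was found in 2, beside 15.1% of all tested probes. Slc22a12, the urate reabsorber URAT1 of kidney, had 4.18, 3.72 and 3.55 in the knockout and 4.35, 4.34 and 4.43 in wild type. Every knockout array was below every wild type array, and the log2 difference was −0.56 (SE 0.17, limma adjusted p = 0.307). The other tested probe of Slc22a12 gave −0.42. The organic anion carrier Slc22a6 gave −0.47 (SE 0.18, limma adjusted p = 0.32), with −0.54 to 1.57 at its other 2 tested probes, so its probes disagreed in direction.

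Aldehyde dehydrogenases, which oxidise aldehydes by another chemistry, were all 19 tested, with 7 above and 12 below 0 and a median of −0.05. The genotypes were apart in 5 (26.3%, beside 19.5% of all genes). An unadjusted p under 0.05 was found in 5, beside 15.1% of all tested probes. Aldh1a2, the retinaldehyde dehydrogenase found in meninges, gave −0.64 (SE 0.19, limma adjusted p = 0.307) and −0.65 at its other probe. Aldh1a3, its relative, gave 0.64 (SE 0.46, limma adjusted p = 0.485) and 0.68 at its other probe, with groups that overlapped.

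Retinoid handling, which supplies and clears the retinaldehyde that aldehyde oxidase can oxidise, had 15 of 18 genes tested (not Bco1, Cyp26c1 and Lrat). Their median was −0.04, with 6 above and 9 below 0. The genotypes were apart in 4 (26.7%, beside 19.5% of all genes). An unadjusted p under 0.05 was found in 3, beside 15.1% of all tested probes. Stra6, the cellular receptor for retinol, had 2.60, 1.11 and 0.75 in the knockout and 3.06, 2.82 and 2.70 in wild type. Knockout 1, on slide 1 with the wild type arrays, lay close to them, and the log2 difference was −1.37 (SE 0.46, limma adjusted p = 0.31). The other tested probe of Stra6 gave −0.57.

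Nicotinamide and vitamin B6 enzymes, whose products aldehyde oxidase can oxidise, were all 6 tested, with 1 above and 5 below 0 and a median of −0.05. The genotypes were apart in 0 (0%, beside 19.5% of all genes). An unadjusted p under 0.05 was found in 0, beside 15.1% of all tested probes. Nnmt, which methylates nicotinamide, gave −0.19 (SE 0.20, limma adjusted p = 0.615).

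Other known NRF2 targets, 28 of 28 tested, had 2 genes above and 26 below 0, with a median of −0.12. The genotypes were apart in 13 (46.4%, beside 19.5% of all genes). Fth1 is among them without wild type 1, whose spot was flagged as an outlier. An unadjusted p under 0.05 was found in 10, beside 15.1% of all tested probes. The glutathione transferase Gstm3 had 4.12, 4.14 and 4.01 in the knockout and 5.41, 5.92 and 5.70 in wild type, a log2 difference of −1.58 (SE 0.14, limma adjusted p = 0.0842). Its paralog Gstm1 gave −1.61 (SE 0.16, limma adjusted p = 0.109). No gene of this list had a log2 difference as large as that of Aox1. Aox1 was chosen from this contrast and the list was compiled with results of these samples known, so nothing is read from that order.

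**Figure D5:**
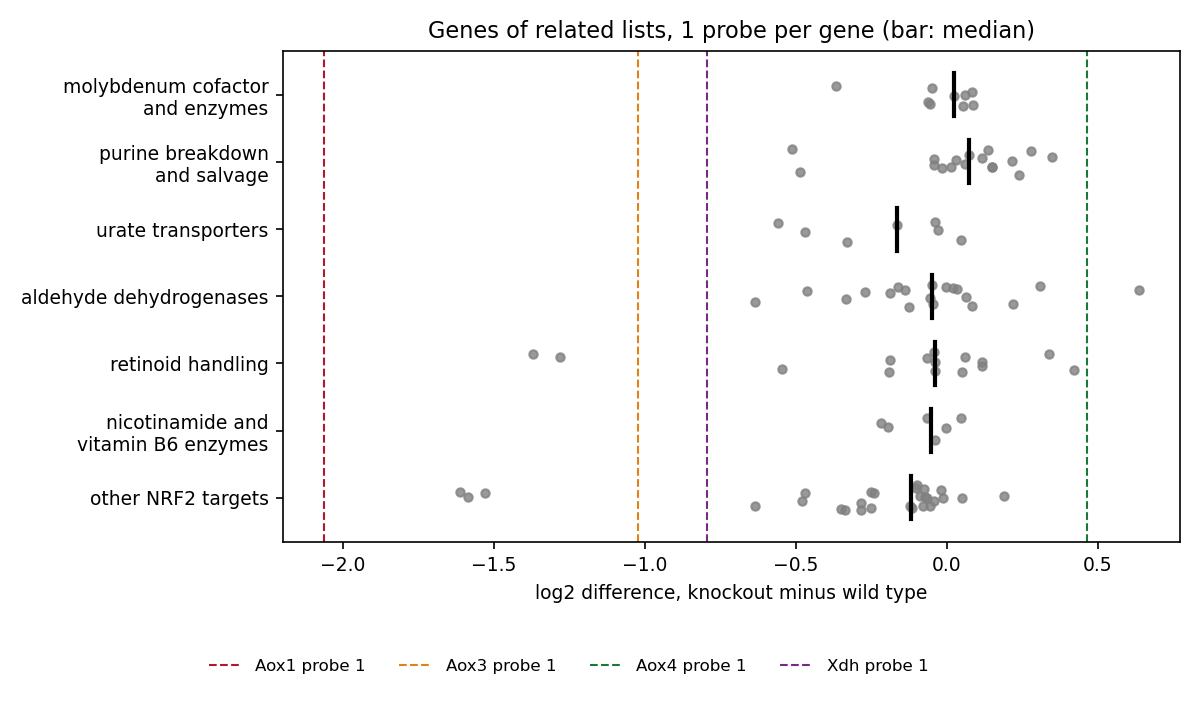
Log2 difference, knockout minus wild type (x axis), of the 101 tested genes of 7 lists, 1 point per gene with a bar at the median of the list; dashed lines give probe 1 of Aox1, Aox3, Xdh and Aox4. List medians lie between −0.16 and 0.073, and the lowest genes are Gstm1 and Gstm3 at −1.61 and −1.58.

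In bulk tissue, fewer cells of a type and less RNA per cell cannot be told apart, so markers of 10 cell types or regions were read beside these values. All 80 markers were well above background on every array, and limma called 0 of them. Of the meningeal fibroblast markers, all 8 had a log2 difference below 0, with a median of −0.40, and their summed signal was 34.9, 33.5 and 40.5 in the knockout and 65.2, 51.5 and 42.1 in wild type, in units of the array's 75th percentile. Microglial markers were also all 8 below 0, with a median of −0.06, and their sums overlapped, at 158 to 177 in the knockout and 164 to 183 in wild type. The part of the fibroblast difference in the lower signals of Aox1, Aox3, Aldh1a2, Stra6 and Slc22a12 was not tested. Summed choroid plexus and ependyma markers overlapped between the genotypes, at 3.34, 4.54 and 3.28 in the knockout and 4.78, 3.99 and 3.75 in wild type. Striatal markers summed to 63.0 to 78.3 in the knockout and 71.5 to 79.0 in wild type.

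The coding genes whose signal followed Aox1 probe 1 most closely over the 6 arrays were Itga3, Rnf40, Gstm3, 2810021J22Rik and Nfe2l2, of 17372 with a tested probe. Pearson's r was 0.996 for Itga3, an integrin subunit gene, 0.995 for Rnf40, a histone H2B ubiquitin ligase gene, and 0.995 for Gstm3. For 2810021J22Rik, whose role is not given, and for Nfe2l2 itself r was 0.994 and 0.992. These 6 points fall into 2 genotypes and share their slides, so r mostly reflects the gap between genotypes relative to the spread within them and is given as a description. The sizes behind it differed widely, with log2 differences of −0.16 for Itga3, −0.18 for Rnf40, −1.58 for Gstm3, −0.34 for 2810021J22Rik and −4.08 for Nfe2l2.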

How the data were processed

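Spots of 6 one-colour Agilent arrays were used, 3 of Nrf2 knockout and 3 of wild type prefrontal cortex, grouped by the labels' genotype. Per the file headers, the deposited intensity values come from Feature Extraction 12.0.3.1 and were background-subtracted and detrended, and version 10.7 with limma is named in the submitters' processing notes. The authors' deposited value table is on a log2 scale, close to quantile-normalised signals, and served as an alternative. The sources used here do not give the steps behind it.

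For each spot, log2 of the processed signal minus the array's 75th percentile was taken. Control spots (4974) were dropped, and any spot flagged as an outlier was set to missing. A probe was tested if well above background on all 3 arrays of at least 1 genotype and estimable in the fit, which 105930 probes were. The genotypes were compared by lmFit and eBayes of limma 3.58.1 (R 4.3.3), without covariates, as knockout minus wild type. Two-sided p-values were adjusted by Benjamini-Hochberg across every tested probe, with 0.05 as the threshold. The fit was tested on simulated data. SE is limma's. For lists and neighbours, 1 probe per gene was used. Symbols of 48048 of the 48467 probes annotated to RefSeq came from the RefSeq table of GRCm38.p6, which also gave promoters and gene positions. Catalogue probe positions are on mm9 per the file headers.

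The members and lists were chosen with earlier results of these data known. Named were every member probe, the 2 genes of largest difference per list and per region, the nearest tested neighbours, the 5 genes most like Aox1 and Nfe2l2, and some genes that this rule names are not reported here. The alternatives were normexp, quantile normalization, the authors' table, other filters on dim probes, slide as a block, slide 1 alone, a replicate block and leaving out each array. The number of arrays, 3 per genotype, limits the precision. Correlations of the deviations of same-numbered arrays were −0.013, −0.05 and 0.038, so the numbers were not taken to pair samples.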

Additional observations from a re-analysis of the deposited data

How the results depend on the processing

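The direction of all 8 tested member probes was the same under the 14 alternatives run. At these probes the other filters on dim probes and the replicate block give the reported difference by construction. Those agreements were therefore fixed in advance. Slide as a block gives the same difference as slide 1 alone. Xdh probe 2 was near 0 without knockout 2, at −0.04 (SE 0.16). Normexp moved Aox1 probe 1 to −1.74 and probe 2 to −1.62, Aox3 probe 1 to −0.61 and probe 2 to −0.11, and Xdh probe 3 to −0.073, since its offset of 50 shrinks differences of dim probes by construction. The number of probes past limma's threshold, 10 of all tested, was 17 with normexp, 4 among probes well above background on all arrays, 4 on slide 1 alone and 2 with the replicate number as a block. Leaving out 1 array gave 5 to 13562, the highest without knockout 1, where slide and genotype cannot be told apart. Dropping wild type 1 gave 50, dropping wild type 2 or knockout 2 gave 6 each, and dropping wild type 3 or knockout 3 gave 5 each. Of the member probes, 2 passed in the fit reported. With quantile normalization, the authors' table or no filter, 1 passed (Aox1 probe 1). With slide as a block, on slide 1 alone or with the replicate block, 0 passed. Leaving out 1 array gave 0 to 3: 0 when any of wild types 2 and 3 and knockouts 2 and 3 was dropped, and Aox3 probe 1 as well as both Aox1 probes without knockout 1. Genes of the 7 related lists past the threshold numbered 0 in the fit reported, 3 with normexp (Gstm3, Mgst1 and Gstm1), and 0 to 10 when 1 array was left out (1 without wild type 1, Gstm3, and 10 without knockout 1). Neighbouring genes past it numbered 0 in every fit. The labels do not say that the replicate numbers pair samples. With the replicate block, genes of the related lists and neighbouring genes past the threshold stayed at 0. The median over all tested probes was 0.028 in the fit reported and 0.041 to 0.047 under other scalings. Aox4 probe 2, 1 circRNA of Aox1 and the Aox2 probe were too dim to test.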

Other observations

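The genes most like the other members over the 6 arrays were looked up after the values had been seen, and are given as values. For Xdh probe 1 they were Ube2u, Nmur1, Gclm, Hepacam2 and Vmn1r124, with Pearson's r from 0.984 to 0.992 over 17372 genes. Gclm, the modifier subunit of glutamate-cysteine ligase, had −0.044, −0.60 and −0.18 in the knockout and −0.042, 0.006 and 0.068 in wild type. Knockout 2 was the lowest array at this probe, as at Xdh. The log2 difference was −0.28 there and 0.21 at the other tested Gclm probe, so the direction differed between them. Ube2u, a ubiquitin-conjugating enzyme gene, had −4.85, −6.76 and −5.12 in the knockout and −4.75, −4.51 and −4.44 in wild type, and was well above background on 1 of 3 knockout arrays. For Aox3 probe 1 the list was 4931429L15Rik, Nfe2l2, 2810021J22Rik, Ptpn14 and Nipal4, with r from 0.989 to 0.995. Nfe2l2 and 2810021J22Rik stood in the lists of both Aox1 and Aox3. For Aox4 probe 1 it included Afp, Magi1, Ppfia3 and Exosc9, with r from 0.989 to 0.995, and wild type 1 was the highest wild type array in these 4.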
